A study of Mus musculus with 6 samples.

Results

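The AP-1 and immediate early genes were taken as 34 named genes, and every probe set of the array that the probe table pairs with exactly 1 of these symbols was used. This gave 62 probe sets for all 34 genes, out of 45037 probe sets that are not controls and 18193 genes with such a probe set. The cells were GC1-Spg, an established mouse line of spermatogonial origin, transfected with siRNA against the noncoding RNA mrhl at 100 nM or with a scrambled siRNA at the same concentration, and RNA was extracted 44 h later. Each group held 3 arrays, numbered 1 to 3 and called biological replicates in the titles. No untransfected cells were measured, so both groups share transfection with siRNA. The probe table names no probe set for mrhl, so its silencing was not checked on these arrays, and the PCR check mentioned by the submitters was not used here. The values are log2 levels of probe sets on 1-colour Affymetrix arrays, and each fold change compares a probe set with itself on other arrays.

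Immediate early genes are transcribed within minutes of a stimulus, without new protein synthesis, and their RNAs are mostly short-lived. Growth factor signals reach them through RAS and the ERK kinases, which act on the ternary complex partners of serum response factor (SRF) at their promoters. Among the products, FOS and JUN proteins pair through leucine zippers to form AP-1, the EGR, KLF and NR4A proteins are other transcription factors, and the DUSP phosphatases and Sprouty proteins switch the ERK signal off again. In spermatogonia ERK signalling lies downstream of growth factors of the testicular niche. A level at 44 h is a level in culture long after transfection and not the first response to a stimulus.

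Of the 34 genes, 33 had a probe set bright enough to be tested, and Fosb did not. Each gene was read through its brightest tested probe set. None of the 33 passed an adjusted p of 0.05 in limma (adjusted p of 0.965 or more for each), as none of the 14885 genes tested did (0%). At an unadjusted p under 0.05 stood 1 member, Jund, on the higher side and 0 on the lower side, where 0.860% and 1.98% of all genes did. The groups did not overlap in Jun and Jund, both higher after mrhl siRNA (2 of 33, or 6.06%, against 2.30% of all genes), and in 0 members on the lower side, against 6.13% of all genes. Without mrhl siRNA replicate 2, scrambled siRNA replicate 2 or scrambled siRNA replicate 3, 0 members had an unadjusted p under 0.05, where 1.67%, 2.43% and 1.93% of all genes did. Without mrhl siRNA replicate 3 there were 3, Fos, Jund and Egr2 (9.09%, against 6.45% of all genes). Groups without overlap are easier to reach with 5 arrays. They numbered 13 members without mrhl siRNA replicate 3 (39.4%, against 28.1% of all genes), 6 without scrambled siRNA replicate 1 (18.2%, against 26.7%) and 4 without scrambled siRNA replicate 2 (12.1%, against 16.5%). Log2 fold changes, as mrhl siRNA minus scrambled siRNA, were positive in 14 and negative in 19 members, from -0.55 for Egr2 to 0.54 for Jund. Of all 14885 genes tested, 6264 were positive and 8621 negative, so negative signs were the more frequent ones throughout. The median of the members was -0.05, and that of all genes tested was -0.04.

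The labels state no pairing. Arrays of equal number were read as pairs because their deviations from the group means were correlated in these data. That correlation was weakest for number 2, at 0.201, where the highest one between unequal numbers was 0.0684. The counts by pair and the fits with a block rest on this reading. The same sign in 3 of 3 pairs was found in 4 members on the higher side, Jun, Junb, Jund and Egr3 (12.1%, against 14.5% of all genes). On the lower side it was found in 11 members, Fos, Egr1, Maff, Ier2, Ier3, Btg1, Dusp1, Dusp4, Dusp6, Spry2 and Spry4 (33.3%, against 26.1% of all genes). When the fit took the replicate number as a block, the members at an unadjusted p under 0.05 numbered 3 in place of 1. These were Jund on the higher side (3.03%, against 3.14% of all genes) and Fos and Dusp4 on the lower side (6.06%, against 5.89%). The smallest adjusted p of a member with the block was 0.487 (limma).

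**Figure D1:**
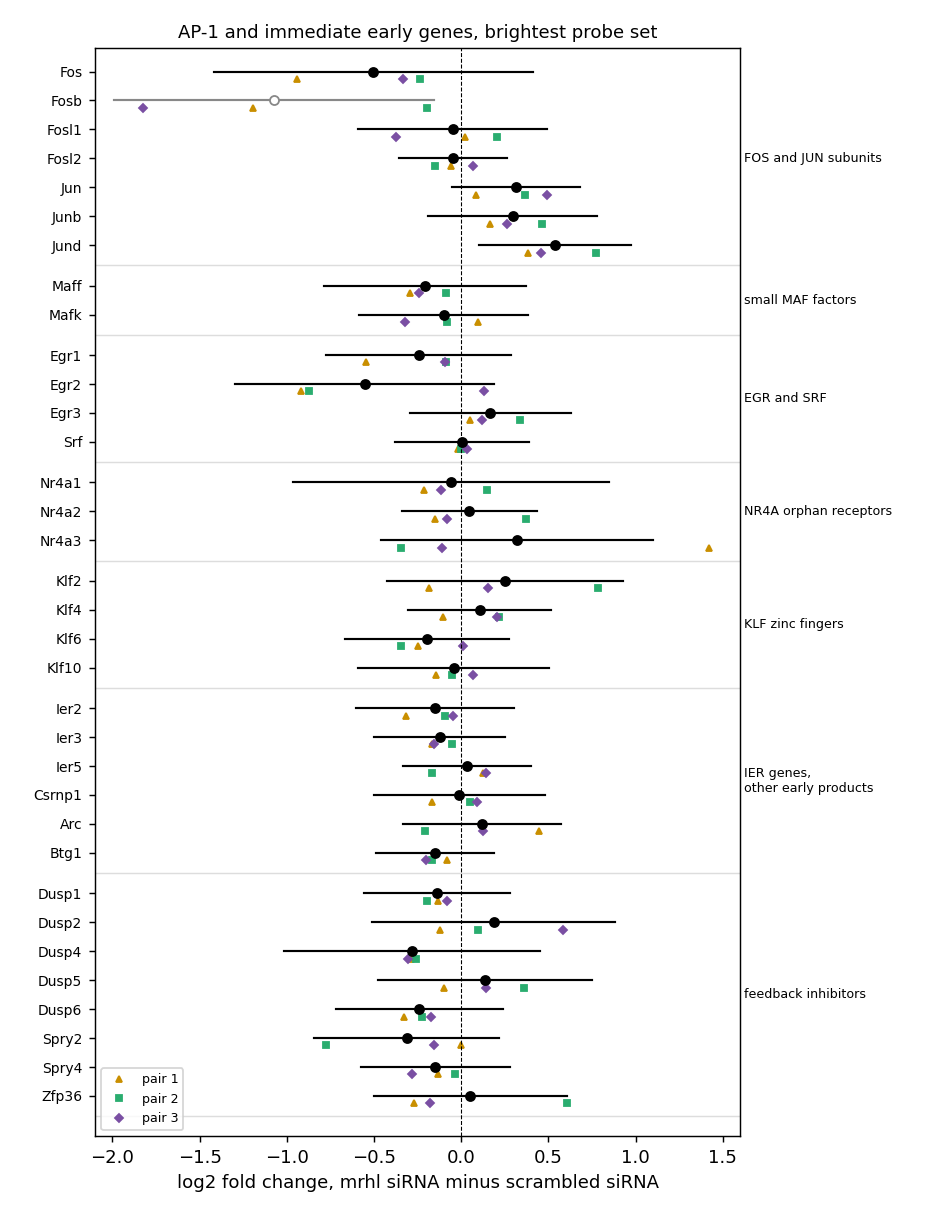
Log2 fold changes (mrhl siRNA minus scrambled siRNA) of the 34 genes by role, with 95% intervals of the limma fit without the block (black; grey and open for Fosb, which lay under the filter and was fitted without it) and the differences within pairs 1, 2 and 3 (coloured symbols). The interval of Jund, 0.10 to 0.97, is the only black one that leaves out 0, and the pairs of Nr4a3 lie from -0.34 to 1.42.

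The JUN genes encode the AP-1 subunits that can pair with each other as well as with FOS proteins. Jund, the JUN gene that many resting and growing cells express steadily, had log2 levels of 11.95, 11.80 and 11.62 after mrhl siRNA, against 11.56, 11.03 and 11.17 after scrambled siRNA. Every mrhl siRNA array stood above every scrambled siRNA array, by 0.06 at the closest. This amounts to a log2 fold change of 0.54, or 1.45-fold (SE 0.186, 95% interval 0.10 to 0.97), which missed the threshold after adjustment (limma, adjusted p = 0.965). With the block the interval was 0.21 to 0.87, and the adjusted p was 0.487 (limma). A second, far dimmer probe set of Jund gave 3.88, 4.47 and 4.04 after mrhl siRNA and 4.45, 4.06 and 4.62 after scrambled siRNA. Its groups overlapped, and its log2 fold change of -0.25 (SE 0.218) had the opposite sign.

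Jun, the subunit with the strongest transcriptional activity of the 3 JUN proteins, gave 10.12, 10.31 and 10.54 after mrhl siRNA, against 10.03, 9.94 and 10.05 after scrambled siRNA. The groups did not overlap, at a log2 fold change of 0.32 (SE 0.157, 95% interval -0.05 to 0.68, or -0.01 to 0.64 with the block). The other probe set of Jun, annotated to the same transcript, read 9.11, 9.34 and 9.64 after mrhl siRNA and 9.39, 9.36 and 9.72 after scrambled siRNA. It overlapped between the groups and had a log2 fold change of -0.13 (SE 0.190), so the direction of Jun depends on the probe set. Junb, which often opposes JUN in growth control, stood at 9.37, 9.26 and 9.69 after mrhl siRNA and 9.20, 8.80 and 9.43 after scrambled siRNA. It was higher after mrhl siRNA in each pair, by 0.16, 0.46 and 0.26, while the groups overlapped. Junb had a log2 fold change of 0.30 (SE 0.208, 95% interval -0.19 to 0.78, or -0.0058 to 0.60 with the block).

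The FOS genes encode the subunits that form AP-1 only together with a JUN protein. Fos, the classic serum-induced gene, had log2 levels of 5.81, 6.35 and 7.21 after mrhl siRNA, against 6.75, 6.58 and 7.54 after scrambled siRNA. The groups overlapped because replicate 3 was the highest array of each group, but Fos was lower after mrhl siRNA in every pair, by 0.94, 0.24 and 0.33. On average it was 1.42-fold lower, a log2 fold change of -0.51 (SE 0.391, 95% interval -1.42 to 0.41). That value was -0.88 without mrhl siRNA replicate 3 and -0.18 without mrhl siRNA replicate 1. With the block the interval was -0.95 to -0.06, and the adjusted p was 0.487 (limma).

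Fosb, whose protein is closely related to FOS, read 2.63, 3.32 and 1.84 after mrhl siRNA and 3.82, 3.52 and 3.66 after scrambled siRNA. The groups did not overlap, but the mean level of 3.13 lay under 3.62, the 25th percentile below which probe sets were not tested, and the signal was not shown to be above background. The log2 fold change was -1.07 in a fit without that filter (SE 0.376, 95% interval -1.99 to -0.15).

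Fosl1 and Fosl2 encode FRA1 and FRA2, FOS-related subunits that last longer after a stimulus. Fosl1 gave 9.21, 9.54 and 9.58 after mrhl siRNA and 9.19, 9.34 and 9.95 after scrambled siRNA, with a log2 fold change of -0.05 (95% interval -0.59 to 0.49). Fosl2 gave 11.14, 11.11 and 11.27 after mrhl siRNA and 11.20, 11.26 and 11.21 after scrambled siRNA. Those 6 values span little, and the log2 fold change of -0.05 had an interval of -0.36 to 0.26. The dimmer probe sets had positive log2 fold changes, 0.14 (SE 0.225) for Fosl1 and 0.49 (SE 0.319) for Fosl2, and their groups overlapped.

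**Figure D2:**
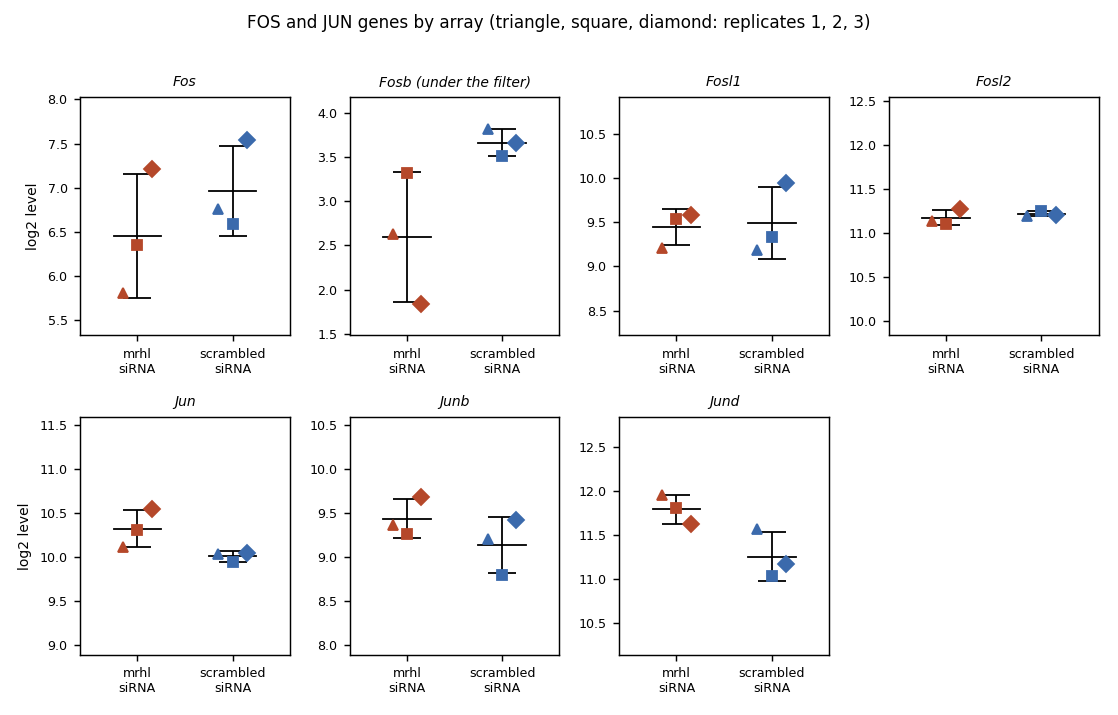
Log2 levels of the FOS and JUN genes on each array, through the brightest probe set, with mrhl siRNA left of scrambled siRNA; bars are means ± SD over 3 arrays, symbols are replicates 1 to 3, and every panel spans the same number of log2 units. The groups stand apart in Jun, Jund and Fosb, while replicate 3 of Fos is the highest array of both groups (7.21 after mrhl siRNA and 7.54 after scrambled siRNA).

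The small MAF proteins MAFF and MAFK lack a transactivation domain and pair with other leucine zipper proteins. Maff stood at 8.60 ± 0.34 after mrhl siRNA and 8.81 ± 0.36 after scrambled siRNA (SD, n = 3 each). It was lower after mrhl siRNA in all pairs, with a log2 fold change of -0.21 (95% interval -0.79 to 0.37). Mafk stood at 7.55 ± 0.16 after mrhl siRNA and 7.65 ± 0.35 after scrambled siRNA (SD, n = 3 each), with a log2 fold change of -0.10 (95% interval -0.58 to 0.38).

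Egr1 encodes a zinc finger factor that ERK signalling induces strongly. Its log2 levels were 10.07, 10.14 and 10.69 after mrhl siRNA, against 10.62, 10.23 and 10.78 after scrambled siRNA. The groups overlapped, although Egr1 was lower after mrhl siRNA in each pair, by 0.55, 0.09 and 0.09. Egr1 had a log2 fold change of -0.24 (SE 0.227, 95% interval -0.77 to 0.29, or -0.60 to 0.12 with the block).

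Egr2, a related factor known for its role in myelinating cells, read 4.30, 4.61 and 5.59 after mrhl siRNA and 5.22, 5.48 and 5.45 after scrambled siRNA. Its arrays of numbers 1 and 2 were lower after mrhl siRNA by 0.92 and 0.88, and those of number 3 differed by 0.13 the other way. The log2 fold change of -0.55 (SE 0.318, 95% interval -1.30 to 0.19) was the lowest of the 33 tested members, and it was -0.93 without mrhl siRNA replicate 3 and -0.29 without mrhl siRNA replicate 1. The interval of the brightest probe set of Egr2 with the block was -1.16 to 0.06. The dimmer probe set of Egr2 had -0.65 (SE 0.561), and its mrhl siRNA mean of 3.57 lay under the filter level. Its interval with the block was -1.20 to -0.10 (limma, adjusted p = 0.487). Egr3 had 0.17 (SE 0.198) through its brightest probe set and -0.30 (SE 0.278) through the other. Srf, the gene of the factor itself, stood at 8.27 ± 0.19 after mrhl siRNA and 8.26 ± 0.16 after scrambled siRNA (SD, n = 3 each). Its log2 fold change of 0.0064 had an interval of -0.38 to 0.39, and a dimmer probe set had 0.32 (SE 0.183).

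Sequences around the gene starts are shown for Fos and Jun, the founding AP-1 genes, whose brightest probe sets had opposite signs, and for Egr2 and Srf, where the motif of SRF was found. They are RefSeq sequences of build GRCm38.p6, each running from 250 bases before to 50 bases after an annotated start, and 26 of the 34 genes had an entry. Fos lies at chr12:85473640-85473939 on the plus strand, Jun at chr4:95052173-95052472 on the minus strand, this Egr2 start at chr10:67537316-67537615 on the plus strand and Srf at chr17:46556113-46556412 on the minus strand. Egr2 had 5 such windows, and the one with most motif matches is shown. Capitals mark the TATA box in Fos, a match to TGACATCA in Jun, the CArG box in Egr2, and a pair of CArG boxes followed by a match to TATAAA on the opposite strand in Srf.
Fos: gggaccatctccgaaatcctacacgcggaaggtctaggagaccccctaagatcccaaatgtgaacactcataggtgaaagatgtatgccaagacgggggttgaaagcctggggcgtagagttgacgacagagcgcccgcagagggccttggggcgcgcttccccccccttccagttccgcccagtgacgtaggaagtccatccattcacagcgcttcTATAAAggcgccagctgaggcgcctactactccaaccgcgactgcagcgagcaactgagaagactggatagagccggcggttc
Jun: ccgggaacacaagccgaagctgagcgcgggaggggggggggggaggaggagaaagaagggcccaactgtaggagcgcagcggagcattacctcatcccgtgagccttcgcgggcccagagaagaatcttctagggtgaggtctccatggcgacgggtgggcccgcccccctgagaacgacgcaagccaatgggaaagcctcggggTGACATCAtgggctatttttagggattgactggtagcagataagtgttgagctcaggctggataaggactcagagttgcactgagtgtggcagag
Egr2: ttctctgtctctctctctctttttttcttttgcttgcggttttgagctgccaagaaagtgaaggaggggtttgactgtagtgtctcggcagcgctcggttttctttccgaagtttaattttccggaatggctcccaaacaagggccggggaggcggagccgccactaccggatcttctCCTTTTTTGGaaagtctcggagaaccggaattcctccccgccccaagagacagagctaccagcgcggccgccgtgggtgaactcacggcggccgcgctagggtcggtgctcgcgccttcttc
Srf: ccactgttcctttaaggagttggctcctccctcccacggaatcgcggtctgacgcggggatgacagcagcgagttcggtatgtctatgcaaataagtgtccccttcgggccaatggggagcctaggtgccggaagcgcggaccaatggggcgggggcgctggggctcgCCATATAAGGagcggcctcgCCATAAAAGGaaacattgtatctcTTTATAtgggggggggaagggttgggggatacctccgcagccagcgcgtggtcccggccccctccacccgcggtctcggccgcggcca

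The CArG box, the motif that SRF binds, was found on either strand in 4 of these 26 genes, Egr2, Srf, Dusp5 and Zfp36, and in 1.81% of the 27025 genes with an entry. Their log2 fold changes were -0.55, 0.0064, 0.13 and 0.05, so the carriers lay on both sides of 0. The AP-1 site TGANTCA was found in 1 of the 26, Csrnp1, against 8.97% of all genes. The cyclic AMP response element TGACGTCA was found in Dusp1 and Maff, against 2.03% of all genes. Its variant TGACATCA was found in Jun, Klf6 and Maff, against 4.18%. The EGR site GCGTGGGCG was found in Maff alone, against 0.707%. TATAAA, the letters of the TATA box, was found on either strand in Fos, Junb, Nr4a2, Srf and Btg1, against 15.7%. Its position relative to the start was not used. The motifs were searched on both strands, do not overlap one another in the sequences printed, and are matches of letters in a short window. A gene with several windows, such as Egr2, Maff or Csrnp1, was counted if any of them held a match. Sequence outside that window was not searched, and Egr1 was among the genes without an entry. A missing match, as of the CArG box in Fos, therefore does not show that a gene lacks the site.

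The NR4A genes encode orphan nuclear receptors that are induced like FOS. Nr4a1 gave 7.63, 8.14 and 8.84 after mrhl siRNA and 7.85, 7.99 and 8.96 after scrambled siRNA. Its arrays spread over more than 1 log2 unit within each group, and the log2 fold change was -0.06 (95% interval -0.96 to 0.84). Nr4a2 was represented by 6 probe sets with log2 fold changes from -1.14 for the dimmest, which was under the filter, to 0.39, and its brightest gave 0.05 (SE 0.165). The probe set at 0.39 (SE 0.154) read 5.49, 5.65 and 5.29 after mrhl siRNA, against 4.99, 5.18 and 5.10 after scrambled siRNA, without overlap. That probe set missed the threshold after adjustment (limma, adjusted p = 0.965). The 6 probe sets of Nr4a2 therefore gave no common direction. Nr4a3 had 0.32 (SE 0.333) through its only tested probe set, with differences of 1.42, -0.34 and -0.11 in the pairs.

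The Krüppel-like factors of the list are zinc finger proteins, of which KLF4 is known for reprogramming cells to pluripotency. Klf4 read 10.68, 11.01 and 11.20 after mrhl siRNA and 10.79, 10.79 and 10.99 after scrambled siRNA through its brightest probe set, with a log2 fold change of 0.11 (SE 0.175). Its other probe set read 10.41, 10.80 and 10.77 after mrhl siRNA, against 10.28, 9.99 and 10.32 after scrambled siRNA. Those groups did not overlap, and the log2 fold change of that probe set was 0.47 (SE 0.173, 95% interval 0.06 to 0.87). It missed the threshold after adjustment (limma, adjusted p = 0.965). Both probe sets of Klf4 had a positive sign. Klf2, best known from endothelial cells and lymphocytes, stood at 10.98 ± 0.32 after mrhl siRNA and 10.73 ± 0.52 after scrambled siRNA (SD, n = 3 each), with pair differences of -0.18, 0.78 and 0.15. Klf10, a gene that TGF-beta induces, had -0.04 (95% interval -0.59 to 0.50). Klf6 had -0.20 (SE 0.201), and its 5 probe sets lay from -0.32 to 0.37.

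The IER genes are named for their immediate early response to growth stimuli. Ier3, a survival gene induced by stress, stood at 12.51 ± 0.15 after mrhl siRNA and 12.63 ± 0.17 after scrambled siRNA (SD, n = 3 each), with a log2 fold change of -0.12 (95% interval -0.50 to 0.25). Ier2 had -0.15 (SE 0.194), and both Ier2 and Ier3 were lower after mrhl siRNA in 3 of 3 pairs. Ier5 had 0.03 (SE 0.157) through its brightest probe set, and 0.54 (SE 0.268) and -0.27 (SE 0.306) through the others. Btg1, an antiproliferative gene, had -0.15 (SE 0.144) and was lower in 3 of 3 pairs. Csrnp1, a nuclear protein gene induced by AXIN1 in human cells, had -0.0097 (SE 0.209). Arc, an activity-induced gene of neurons, had 0.12 (SE 0.193) at a dim level of 4.63 after mrhl siRNA and 4.51 after scrambled siRNA.

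Most of the feedback inhibitors limit the signal that induces the other genes, and Zfp36, which acts on RNA decay, was counted with them. Of the 8, 5 lay below 0 and 3, Zfp36 among them, above, at a median log2 fold change of -0.14. Dusp4, a nuclear phosphatase of ERK, read 8.09, 8.51 and 9.03 after mrhl siRNA, against 8.38, 8.77 and 9.34 after scrambled siRNA. The groups overlapped widely, yet Dusp4 was lower after mrhl siRNA by nearly the same amount in each pair, by 0.29, 0.26 and 0.30. Its log2 fold change was -0.28, with an interval of -1.02 to 0.45 without the block and -0.55 to -0.02 with it (limma, adjusted p = 0.487 with the block). It was -0.53 without mrhl siRNA replicate 3 and -0.029 without scrambled siRNA replicate 3. Dusp6, the cytoplasmic ERK phosphatase that is a common readout of FGF signalling, stood at 10.69 ± 0.30 after mrhl siRNA and 10.93 ± 0.24 after scrambled siRNA (SD, n = 3 each). It was lower in each pair, by 0.33, 0.22 and 0.17, with a log2 fold change of -0.24. The 95% interval of Dusp6 was -0.72 to 0.24, and -0.52 to 0.04 with the block.

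Spry2, a Sprouty inhibitor of receptor tyrosine kinase signalling, read 8.00, 7.81 and 8.39 after mrhl siRNA and 8.01, 8.58 and 8.55 after scrambled siRNA. Most of its log2 fold change of -0.31 (SE 0.226) came from the pair of number 2, which differed by -0.78. Its dimmer probe set had -0.02 (SE 0.195). Spry4 had -0.15 (SE 0.182) through its only tested probe set, at 4.49 after mrhl siRNA and 4.64 after scrambled siRNA. Dusp1, which acts on JNK and p38 as well as ERK, had -0.14 (SE 0.178) and was lower in 3 of 3 pairs. Dusp5 and Dusp2 had 0.13 (SE 0.262) and 0.19 (SE 0.297), so the phosphatase genes did not share a sign. Zfp36, which encodes a protein that speeds the decay of AU-rich RNAs, had 0.05 (SE 0.236).

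**Figure D3:**
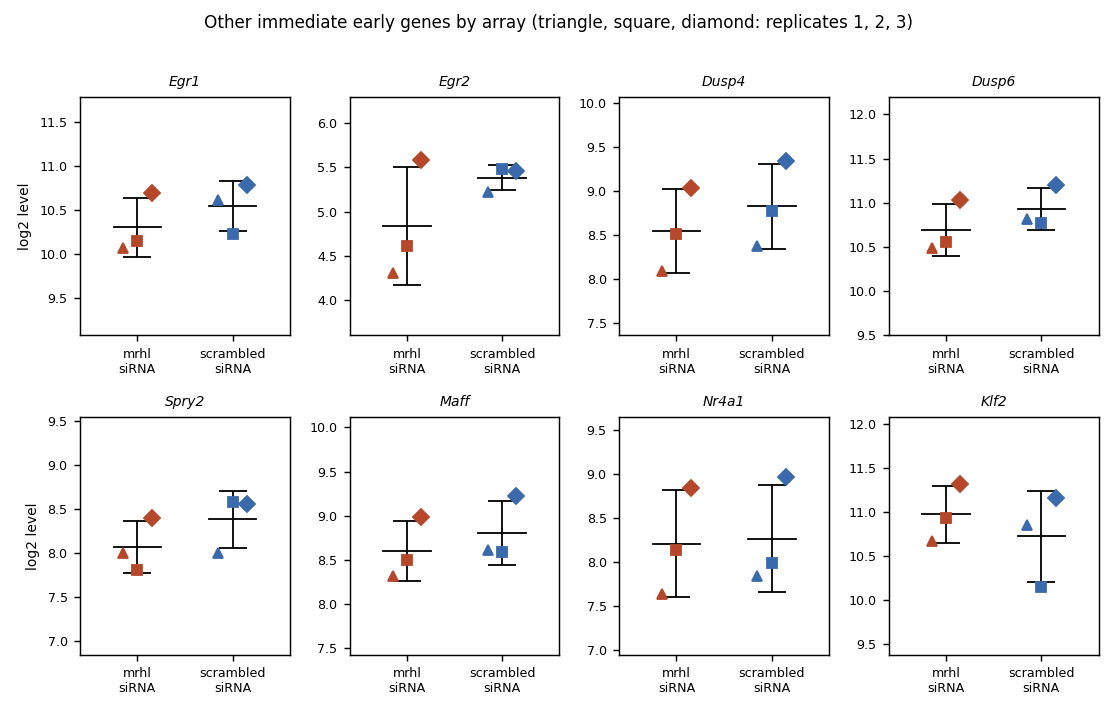
Log2 levels on each array of 8 further members through their brightest probe sets, with mrhl siRNA left of scrambled siRNA; bars are means ± SD over 3 arrays, symbols are replicates 1 to 3, and every panel spans the same number of log2 units. Replicate 3 is the highest array of both groups in Egr1, Dusp4, Dusp6, Maff, Nr4a1 and Klf2, and the groups overlap in all 8.

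Levels of the members also varied with the replicate number, in both groups alike. In 21 of the 33 members (63.6%) the array of number 3 was the highest of its group in both groups, and so it was in 24.8% of all genes tested. These 21 included Fos, Fosl1, Jun, Junb, Egr1, Maff, Nr4a1, Srf, all 4 KLF genes and Dusp1, Dusp4, Dusp5 and Dusp6. Among 22 other early response genes the same held for Myc, Ccn1, Ccn2, Phlda1, Ifrd1, Nfkbia, Gadd45b, Rnd3, Plk2, Plk3, Btg2, Tnfaip3, Ptgs2 and Per1. It did not hold for the rest of that list, among them Gem, Sgk1, Trib1, Sik1, Cebpb and Cebpd. The pattern was thus not particular to the members. The median member stood 0.34 log2 units higher on the arrays of number 3 than on the mean of the other numbers, and the median gene 0.03 higher. Fos and Nr4a1 both stood 1.00 higher, and Dusp4 0.75 higher. With array medians set to 0, 18 members (54.5%) and 18.5% of all genes were highest at number 3 in both groups, and with quantile normalization 17 (51.5%) and 16.3%. In 6 members the arrays of number 3 were lower, by differences of -0.42 in Dusp2, -0.38 in Egr3, -0.24 in Nr4a3, -0.21 in Arc, -0.19 in Jund and -0.16 in Nr4a2.

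The 3 means by replicate number spread over a wider range than the absolute log2 fold change in 31 of the 33 members (93.9%), the exceptions being Jun and Jund, and in 83.8% of all genes. The median of that range was 0.47 for the members and 0.34 for all genes, while the median absolute log2 fold change was 0.15 and 0.14. A range over 3 means tends to exceed a single difference between group means even without any effect. The members can therefore be read only against all genes here. The pair of number 1 had a lower level after mrhl siRNA in 24 of 33 members (72.7%, against 54.8% of all genes). For the pairs of numbers 2 and 3 the counts were 19 and 17 (57.6% and 51.5%, against 58.1% and 55.7% of all genes).

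Several probe sets were available for 16 of the 34 genes, and in 12 of these the probe sets lay on both sides of 0. Only Egr2, Srf, Klf4 and Spry2 had a single sign. Where the probe sets of a gene disagreed, the dimmer ones were in some genes near or under the filter, as for Jund, Nr4a3 and Spry4. Those of Jun, Fosl1, Fosl2, Klf6, Ier5 and Btg1 were not.

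**Figure D4:**
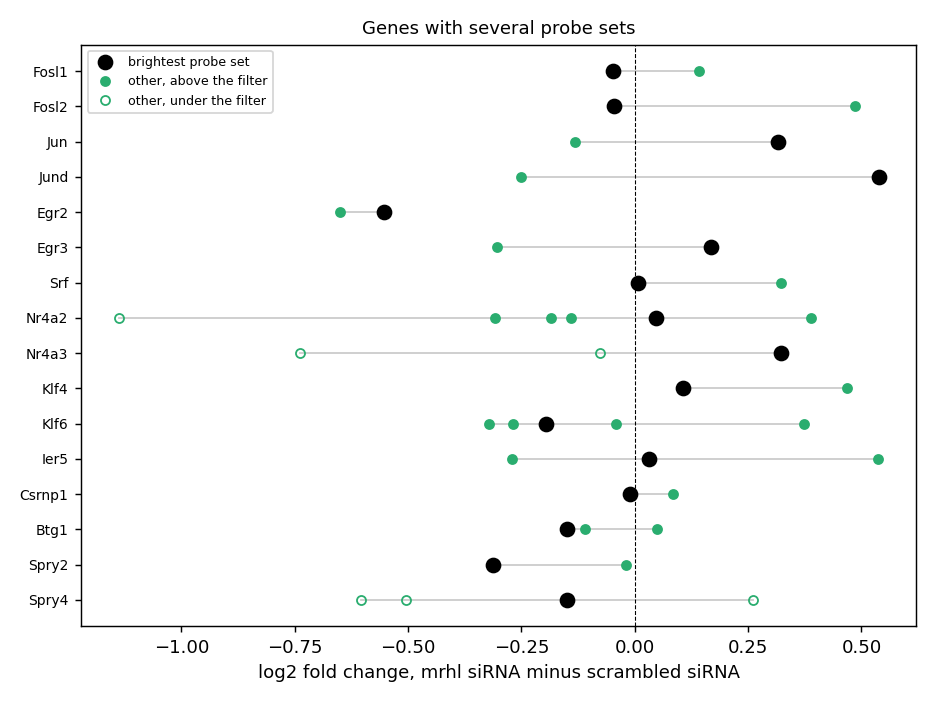
Log2 fold changes (mrhl siRNA minus scrambled siRNA) of every probe set for the 16 members with several, one gene a row. Large black points mark the brightest probe set, green points the others, and open points lie under the filter of 3.62; in 12 rows the points lie on both sides of 0, as in Jun (0.32 and -0.13) and Jund (0.54 and -0.25).

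Other genes of the same pathways were counted by lists, and none of the 78 tested passed (limma, adjusted p of 0.965 or more). At an unadjusted p under 0.05 stood 1 of the 78, Gem (1.28%, against 2.84% of all genes), and 8 with the block (10.3%, against 9.03%). These 8 were Ier5l on the higher side and Gem, Plk3, Ptgs2, Atf3, Batf3, Mmp13 and Dusp7 on the lower side. Of 20 tested upstream kinases and factors, 7 lay above 0 and 13 below, at a median log2 fold change of -0.04. The ERK-activated kinase gene Rps6ka3 had -0.28 (SE 0.138), and Braf, which encodes a RAF kinase, had -0.27 (SE 0.141). Of 13 other leucine zipper partners 4 were positive and 9 negative, with a median of -0.06, and Mafg had 0.25 (SE 0.140) and Batf3 -0.39 (SE 0.260). Of 22 other early response genes 6 were positive and 16 negative, with a median of -0.21. Within them Gem, which encodes a small GTP-binding protein, stood at 4.15 ± 0.27 after mrhl siRNA and 4.83 ± 0.24 after scrambled siRNA (SD, n = 3 each), a log2 fold change of -0.68 (SE 0.200).

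Of 11 tested textbook targets of AP-1, 5 were positive and 6 negative, with a median of -0.10. The growth factor gene Ereg had -0.37 (SE 0.270), and Mmp13, which encodes a collagenase, had -0.57 (SE 0.428). Mmp13 was lower after mrhl siRNA in each pair, by 0.63, 0.55 and 0.55, and its interval was -1.58 to 0.43 without the block and -0.84 to -0.30 with it (limma, adjusted p = 0.487 with the block). Of 12 further feedback inhibitors, Zfp36l1 and Zfp36l2 counted with them, 4 were positive and 8 negative, with a median of -0.07. Dusp7 had -0.43 (SE 0.229) and Spred3 0.30 (SE 0.211). Beside these counts and medians stand those of all genes tested, 6264 positive and 8621 negative, with a median of -0.04.

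The labelled cell type was checked by the number of its markers above the filter. Of 9 spermatogonial markers on the array 6 were above it, while Sohlh1 and the germ cell genes Ddx4 and Dazl were under it. Kit passed only just, at a mean of 3.6230 against the filter level of 3.6188. Above the filter were also 6 of 6 Sertoli cell markers, 3 of 4 Leydig cell markers, 5 of 6 fibroblast and peritubular markers, and 3 of 5 blood and endothelial markers. Above the median level of all probe sets, 5.23, stood only 3 of the 9 spermatogonial markers. The same held for 3 of 6 Sertoli cell, 1 of 4 Leydig cell, 4 of 6 fibroblast and peritubular, and 2 of 5 blood and endothelial markers. Of all 18193 genes with a probe set of 1 symbol, 14885 were above the filter and 10983 above the median level. Passing either limit is thus common among all genes and does not identify a cell type. These counts do not single out the labelled cell type. Summed on the linear scale within each array, the spermatogonial markers had a log2 level that ran from 8.52 to 9.00 after mrhl siRNA and from 8.59 to 8.91 after scrambled siRNA, and that of the 6 fibroblast and peritubular markers from 13.22 to 13.62 after mrhl siRNA and from 12.60 to 13.53 after scrambled siRNA. The Sertoli cell, Leydig cell, and blood and endothelial lists overlapped between the groups as well, and the part of such markers in the members' values was not tested. The log2 difference between the 3′ and 5′ control probe sets of Actb, a sign of RNA quality, lay between 0.38 and 0.45 after mrhl siRNA and between 0.42 and 0.63 after scrambled siRNA.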

How the data were processed

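Per the submitters' processing notes, the arrays were processed with GCOS and PLIER. The authors deposited a single log2 value per probe set and array. The log2 scale was read from the values, and the sources used here do not state versions, background treatment or how arrays were put on a common scale. Array medians differed by at most 0.11, and the values were used as deposited. Of 45101 rows 64 were controls. Probe sets with a mean under the 25th percentile, 3.62, were left out, leaving 33778. The probe table pairs 34945 probe sets with exactly 1 symbol, 932 with several and does not list 9160.

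All 33778 probe sets were fitted together in R 4.3.3 with limma 3.58.1 (lmFit, then eBayes). Differences are mrhl siRNA minus scrambled siRNA, and p-values were adjusted by Benjamini-Hochberg with a threshold of 0.05. Standard errors and 95% intervals are those of this fit without a block unless stated. A gene was read through its brightest tested probe set. The fit was tested on simulated data. Precision is bounded by 3 arrays a group, at a median standard error of 0.192, and 0.132 with the block.

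Equal replicate numbers were read as pairs because the correlations of deviations from the group means were 0.534, 0.201 and 0.567, all above 0.1. Unequal numbers gave -0.518 to 0.0684. The design text speaks of independent experiments.

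The members, lists and tests were chosen with earlier results of these data known. All members were to be named, with values on each array for the FOS and JUN genes, Egr1 and members at an unadjusted p under 0.05 or without overlap. Of each related list the 2 genes with the smallest p were named, save for a result that is not reported here. Array values of Egr2, Nr4a1, Nr4a2, Klf4, Dusp4 and Spry2, the list genes called with the block, and the counts by pair and by replicate number, were added after seeing the data. Alternatives were other normalizations and filters, the block, variance models, array weights, averaging over a gene's probe sets and each array left out. The motif windows came from RefSeq, GRCm38.p6. Figures were drawn with matplotlib 3.10.9.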

Additional observations from a re-analysis of the deposited data

How the results depend on the processing

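No member passed an adjusted p of 0.05 under any alternative run, and the smallest adjusted p of a member over all of them was 0.147 (limma, replicate block with a trended, robust variance model, an alternative chosen after seeing the data). That model passed 2 probe sets of the whole table, neither of them of a member, and it put 10 members at an unadjusted p under 0.05 (30.3%, against 14.1% of all genes). That count was 1 in the fit as reported (3.03%, against 2.84% of all genes) and 3 with the replicate block alone (9.09%, against 9.03%). It was 2 with array weights, without a filter, with quantile normalization or with the trended, robust model, where 5.82%, 3.10%, 3.22% and 3.18% of all genes were called, and 0 with probe sets averaged per gene (3.29%). With 1 array left out it lay between 0 and 3, against 1.67% to 6.45% of all genes. Members whose groups do not overlap numbered 0 with probe sets averaged per gene (8.28% of all genes), 7 without both arrays of number 1 (21.2%, against 34.7%), and 2 to 13 with 1 array left out (6.06% to 39.4%, against 12.8% to 28.1%). The median log2 fold change of the members was -0.15 with array weights, and from -0.13 to 0.064 with 1 array left out.

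The sign held under every alternative run in 15 of the 33 tested members. With probe sets averaged per gene it turned for Fosl1 (0.047), Fosl2 (0.22), Egr3 (-0.068), Nr4a2 (-0.040) and Csrnp1 (0.038), and with array weights for Srf (-0.070), Ier5 (-0.028), Dusp5 (-0.018) and Zfp36 (-0.028). Csrnp1 also turned with array medians set to 0 (0.0015) and with quantile normalization (0.022). Without both arrays of number 1, added after seeing the data, it turned for Nr4a1 (0.017), Nr4a3 (-0.23), Klf10 (0.0059), Ier5 (-0.013), Csrnp1 (0.070) and Arc (-0.043). With 1 array left out the log2 fold change ran from -0.20 to 0.18 for Fosl1, -0.40 to 0.0013 for Maff, -0.29 to 0.042 for Mafk, -0.098 to 0.096 for Srf, -0.38 to 0.29 for Nr4a1, -0.086 to 0.13 for Nr4a2, -0.036 to 0.47 for Klf2, -0.011 to 0.25 for Klf4, -0.24 to 0.14 for Klf10, -0.068 to 0.10 for Ier5, -0.19 to 0.12 for Csrnp1, -0.053 to 0.44 for Dusp2, -0.077 to 0.34 for Dusp5 and -0.19 to 0.23 for Zfp36. The cause of these turns was not tested. Offsets before the log were not run, because the deposited values are on the log2 scale. The replicate block changed no call at an adjusted p of 0.05. The precision is limited by 3 arrays a group, and probe sets near or under the filter were not shown to be above background.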
